A study of Mus musculus with 19 samples.

Results

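Kupffer cells, the macrophages that live in the sinusoids of the liver, were described here as they stand in mice on chow. The members are the 6 Chow_EmKCs libraries of a series of 19 libraries, chosen by their label, and the values are the RNA levels of all genes in these 6 libraries with no comparison between groups. The mice were female C57BL/6 on a Chow diet. The sources used here do not state their age, nor their genotype beyond the word wild-type for the mice of the series that were fed an MCD diet. EmKCs is the study's name for Kupffer cells sorted as CLEC2+ TIMD4+ (the proteins of Clec1b and Timd4), in a series on Kupffer cells of different origins. The design text gives this gate beside the MCD diet, and it is carried over here to the Chow_EmKCs libraries by their shared name. The other libraries, 6 of MCD_EmKCs and 7 of MCD_MoKCs (CLEC2+ TIMD4-) from mice on the MCD diet for 4 weeks, were not used. RNA from cells sorted out of collagenase D digests of liver was amplified by Smartseq and sequenced. Nothing in the sources says whether each library came from a separate mouse, so every SD and p-value measures the spread between these libraries. The libraries are called 1 to 6 as in their titles.

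Kupffer cells take up particles, aged red cells and microbial products from portal blood. They arise before birth, renew in place, and depend on colony-stimulating factor 1, TGF-beta family ligands and liver X receptor signalling from neighbouring endothelial, stellate and hepatocyte cells. They are known for complement C1q production, for lectins that bind bacteria and for the recycling of heme iron.

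Levels are reads per 1000000 reads of the library (CPM), mean ± SD over the 6 libraries. Where the level of one gene is set against another, CPM was divided by the length of the gene's merged exons in kilobases (CPM per kilobase). Libraries held 15190337 to 27401870 reads, so 10 CPM stood for 152 to 274 reads and a gene with no read in any library lay under 0.0262 CPM (3 reads of the summed total). This limit covers counting error only, since amplified reads are not independent molecules. At least 1 read in at least 1 library was found for 20324 of 33919 identifiers. Mitochondrial genes took 0.511% to 1.05% of reads. Mean levels reached 1 CPM for 13447 genes (66.2% of those with a read) and 10 CPM for 8808 (43.3%). They reached 100 CPM for 1669 (8.21%) and 1000 CPM for 113 (0.556%). These shares are the background for the counts of list members below. In bulk RNA, fewer cells of a type and less RNA per cell cannot be told apart.

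Apoe, the apolipoprotein through which macrophages export cholesterol, held more reads than any other gene, 45699.7 ± 10063 CPM or 4.57% of all reads. It lay at chromosome 7, 19696109 to 19699188, of mm10. Its level ran from 37964 CPM in library 4 to 65654 CPM in library 3 with a median of 42206 CPM. Library 3 stood above the other libraries, which lay between 37964 and 45152 CPM. Clec4f, the galactose-binding lectin that marks mouse Kupffer cells, came next with 12266 ± 1259.8 CPM. Its level ran from 10452 CPM in library 3 to 13831 CPM in library 5 with a median of 12097 CPM, and its coefficient of variation (SD over mean) was 0.103 against a median of 0.290 over the 8808 genes of at least 10 CPM. Per length, leaving out mitochondrial, predicted and ribosomal protein genes, the order was Apoe at 21375 ± 4707 CPM per kilobase, C1qb at 6061 ± 1151, Lyz2, the lysozyme of myeloid cells, at 5915 ± 1321, Cebpb, a myeloid transcription factor, at 5586 ± 2213, the MHC class II invariant chain Cd74 at 5331 ± 779 and Clec4f at 4964 ± 509.8. Apoe did not overlap the others in any library, whereas the ranges of the next 5 genes overlapped, from 2452 to 7975 CPM per kilobase. Among the predicted genes, the short Gm23935 (52469 ± 47588) and Gm22133 (34981 ± 9221) had higher mean levels per kilobase than Apoe. These annotations are 57 and 109 bases long, and the source of their reads was not tested.

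The plot of the most abundant named genes shows which kinds of gene took the reads. The 20 with the highest mean CPM, leaving out mitochondrial, predicted and ribosomal protein genes, ran from Apoe to the class II chain H2-Ab1 at 3965 ± 729 CPM. They included the lysosomal protease Ctsb (9257 ± 820.0 CPM), the scavenger-like protein Cd5l (4617 ± 874 CPM), the receptor for colony-stimulating factor 1, Csf1r (5536 ± 626 CPM), the iron storage chain Ftl1 (5945 ± 1309.6 CPM) and the class I chain H2-D1 (5387 ± 640.5 CPM). They also included the phosphatase Dusp1 (7807 ± 1042 CPM) and the transcription factor Fos (4015 ± 654 CPM), both early response genes. The actin-binding Tmsb4x stood at 5532 ± 1634 CPM, the heparan sulphate protein Sdc3 at 4524 ± 667 CPM and the membrane protein Itm2b at 4038 ± 739 CPM. The 50 most abundant genes of each library took 26.3% ± 2.91 of its reads, lowest in library 4 (22.05%) and highest in library 3 (30.6%). Among the 20 highest per length that this list lacks were Fcna, C1qa, the protease inhibitor Wfdc17 (2460.3 ± 987 CPM per kilobase) and the glutathione peroxidase Gpx1 (2405 ± 627).

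**Figure D1:**
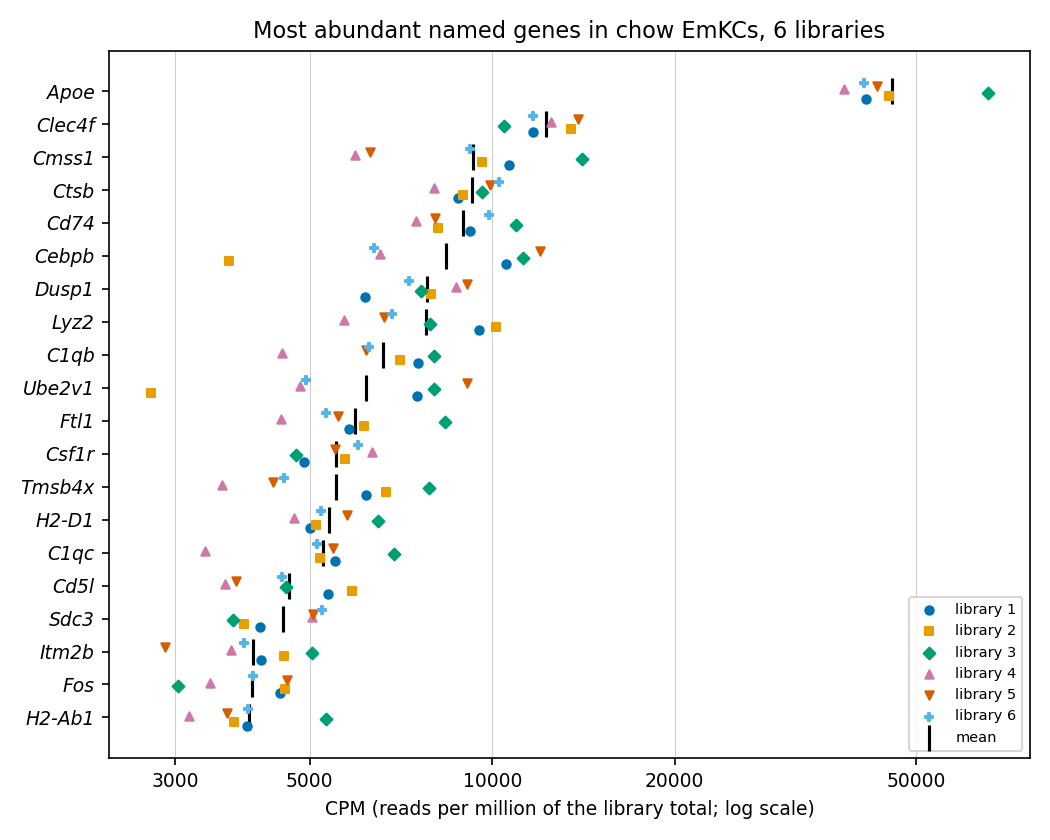
CPM of the 20 named genes with the highest mean in each of the 6 Chow_EmKCs libraries (log axis, 1 symbol per library, vertical bar for the mean). Apoe lies at 37964 to 65654 CPM with library 3 apart, and Cebpb and Ube2v1 are lowest in library 2.

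Some of these levels could not be told apart from those of a neighbour. In 246 cases a gene of at least 10 CPM lies wholly inside the body of another gene. The outer gene's level was at least 90% of the inner gene's in every library in 210 (85.4%), whichever strands the genes were on. An outer gene that is simply higher also meets this condition, as Mertk does over Gm14011 (685 and 28.6 CPM). Of 1102 pairs of genes of at least 10 CPM with overlapping bodies, 44 (3.99%) lay within 10% of each other in every library. Cmss1, next after Clec4f by mean CPM at 9291 ± 3003 CPM, is an outer gene among the 210 cases. The unnamed identifier ENSMUSG00000075007 held 8985 ± 3031 CPM, between 93.3% and 98.1% of the Cmss1 level in the single libraries, and Filip1l, which lies inside Cmss1 on the opposite strand, held 301 ± 61.3 CPM. Taking both away left between 3.26 and 10.1 CPM for Cmss1. Fcna and the antisense Fcnaos (3485 ± 594 CPM and 3579 ± 593 CPM), B2m and Patl2 (1753 ± 489.8 CPM and 1766 ± 491 CPM) and the immune receptor gene Cd300lf and Rab37 (786 ± 428 CPM and 787 ± 429 CPM) had nearly equal levels in every library. For such pairs the reads of one gene cannot be told from those of the other.

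A wider search made after the values were seen took 136 pairs of genes of at least 300 CPM whose bodies lie within 200000 bases of each other. In 13 of them the log2 ratio had an SD under 0.05 over the 6 libraries. The share among pairs of genes that lie far apart was not measured, so the count is not shown to be particular to neighbours. Ube2v1, a ubiquitin-conjugating enzyme variant, kept 71.2% to 77.0% of the level of Cebpb although 56820 bases separate the annotated genes. Trf, which encodes transferrin, kept 90.04% to 95.3% of the level of Cdv3 (1764 ± 213 CPM and 1884 ± 197 CPM), and Pltp and the lysosomal Ctsa differed by less than 5% in every library (1879 ± 192 CPM and 1858 ± 216 CPM). Whether reads were counted for both genes of such a pair was not tested. C1qa and C1qb met the same condition (37.3% to 40.3%).

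The labelled identity was set beside levels of markers. All 20 genes of a list of Kupffer cell surface and secreted markers reached 1 CPM, and 18 reached 100 CPM, against 8.21% of all genes with a read. The list's median was 365 CPM, and the median of all genes with a read was 5.83 CPM. This list holds the gate gene Timd4 and was chosen with earlier results of these data known. Its counts are therefore no independent check of identity. Timd4 and Clec1b, whose proteins define the EmKCs gate, stood at 591 ± 119.6 CPM and 369 ± 48.7 CPM. Timd4, a phosphatidylserine receptor, ran from 466 CPM in library 5 to 748 CPM in library 2 with a median of 547 CPM, and Clec1b, the podoplanin receptor CLEC2, ran from 313 CPM in library 5 to 425 CPM in library 1 with a median of 366 CPM. Libraries 1 and 2 were the highest in both genes. If the Chow_EmKCs were sorted by the same gate, these levels were selected for, so they are no finding.

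Markers that the stated gate does not use were high in all libraries. The complement receptor Vsig4, which captures complement-coated bacteria, ran from 2029 CPM in library 4 to 3153 CPM in library 1 with a median of 2239.8 CPM. Cd5l ran from 3621 CPM in library 4 to 5862 CPM in library 2 with a median of 4535 CPM. Folr2, a folate receptor of tissue macrophages, had 823 ± 237 CPM, the adhesion receptor Adgre1 (F4/80) 1159 ± 234 CPM, the hemoglobin receptor Cd163 1130.2 ± 347 CPM, Il18bp, a decoy for interleukin 18, 661 ± 138 CPM, and the scavenger receptor Marco 295 ± 80.1 CPM. Lower members were the voltage-gated channel gene Kcna2 at 58.7 ± 27.1 CPM and Lyve1, a hyaluronan receptor, at 3.54 ± 2.14 CPM. Clec4f, which the stated gate does not use, exceeded Timd4 per length by 18.5-fold (log2 difference 4.21 ± 0.32) and Clec1b by 68.8-fold (log2 difference 6.10 ± 0.23) in 6 of 6 libraries. Both differences had p = 0.03125 and an adjusted p of 0.0341 in exact two-sided sign-flip permutation tests over the 6 libraries, where 0.03125 is the smallest p possible and the adjustment is over 12 pairs of genes. These p-values state only that the direction held in all 6 libraries. If the same gate was used, the levels of Timd4 and Clec1b were selected for. Clec1b's merged exons sum to 5103 bases, and with its principal transcript as the length the ratio was 14.7.

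**Figure D2:**
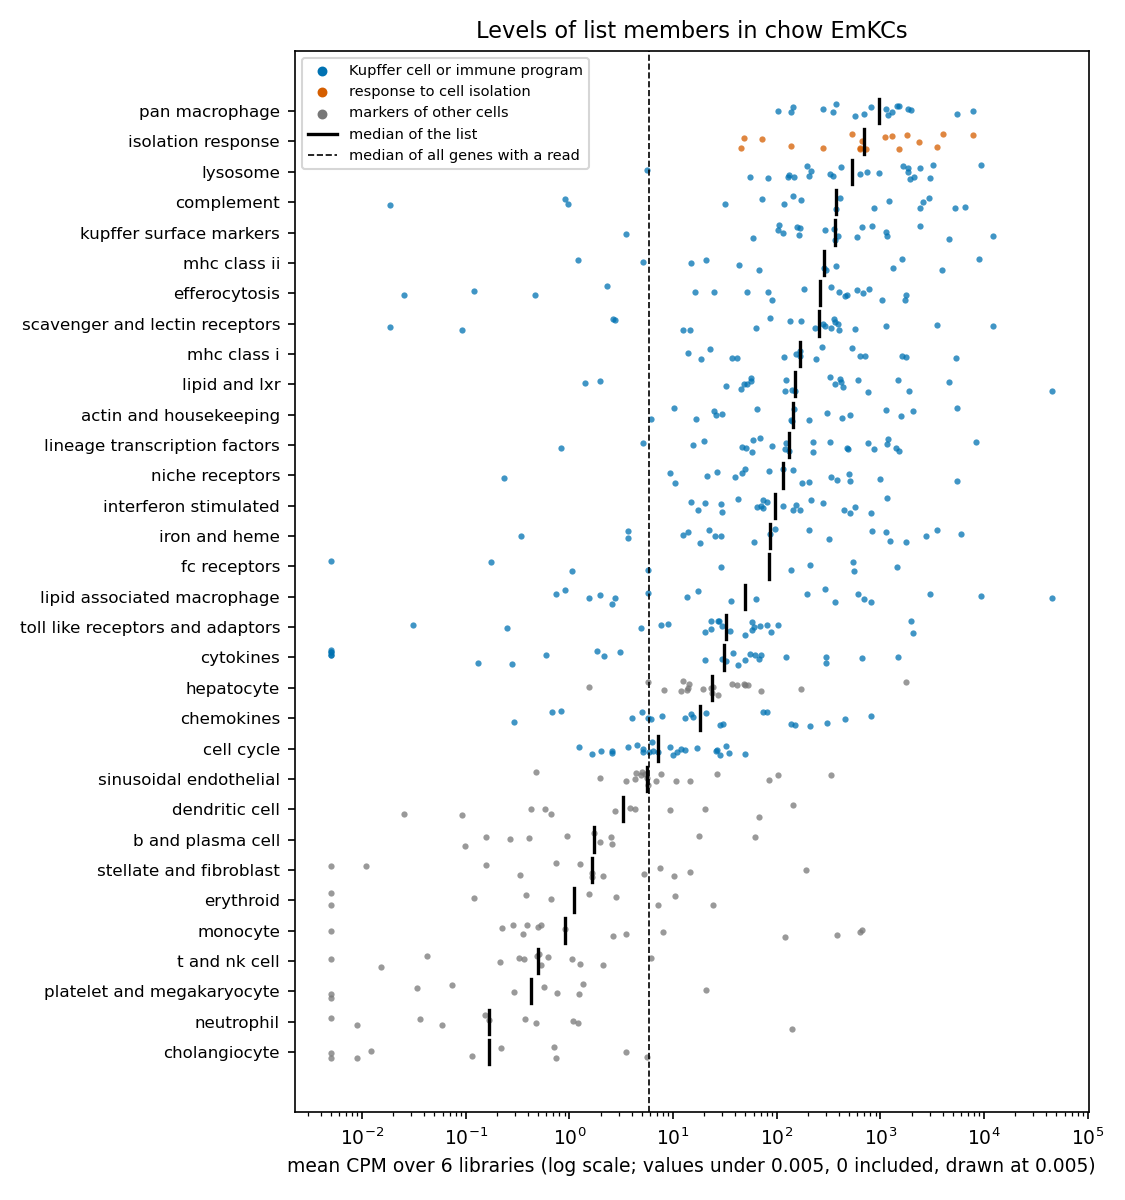
Mean CPM over the 6 Chow_EmKCs libraries for the members of 32 gene lists (log axis, 1 point per gene, thick bar for the list median, dashed line for the median of all genes with a read at 5.83 CPM). The program and isolation-response lists have medians above the dashed line, and of the lists of other cells only the hepatocyte list does.

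Macrophage genes in general were abundant. All 18 genes of a pan-macrophage list exceeded 100 CPM and 9 exceeded 1000, with a median of 967 CPM. The signalling adaptors Tyrobp and Fcer1g, which transmit activating receptor signals, had 1284 ± 316 CPM and 1457 ± 299.8 CPM, the lipopolysaccharide co-receptor Cd14 1958 ± 233 CPM and the cathepsin Ctss 1862 ± 438 CPM. Mpeg1, the pore-forming perforin of macrophages, was the member of widest relative spread (143 ± 82.9 CPM). Itgam, the alpha chain of complement receptor 3, lay 6.80-fold below its partner Itgb2 per length (20.4 ± 6.04 against 134 ± 15.6 CPM per kilobase, log2 difference -2.77 ± 0.46, lower in 6 of 6 libraries, p = 0.03125, adjusted p = 0.0341, exact permutation test).

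Markers of other cells were measured as summed shares of reads. Some monocyte genes of the classical type were near 0, whereas the monocyte marker Plac8, given below, was not. Ly6c2 stood at 0.495 ± 0.418 CPM, Ccr2, the receptor that brings monocytes out of bone marrow, at 0.531 ± 1.28 CPM (0.0073 CPM without library 5), and Vcan had no read in any library. The monocyte list's share of 0.182% ± 0.0298 came mainly from 4 of its 15 genes, Treml4 (385 ± 61.5 CPM), Nr4a1 (658 ± 186 CPM), Itgal (639 ± 112 CPM) and Plac8 (120.0 ± 21.2 CPM), while 8 members lay under 1 CPM. Neutrophil (0.0144%), T and NK cell (0.00137%), B and plasma cell (0.00903%), dendritic cell (0.0253%), platelet (0.00252%), erythroid (0.00474%), cholangiocyte (0.00109%) and stellate (0.0236%) lists took mean shares under 0.03% of reads. Within them single genes were well above the rest, namely Csf3r, the receptor for granulocyte growth factor (141 ± 32.4 CPM), Ecm1 (190.5 ± 30.3 CPM), Bst2 (143 ± 43.3 CPM) and Cd22 (61.8 ± 12.2 CPM). The defining T cell gene Cd3e had 2 reads in all, and Ncr1, Mpo and Col1a2 had none.

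Sinusoidal and hepatocyte genes took more. Sinusoidal endothelial genes took 0.0556% to 0.0685% of reads, mainly through Stab2 (337 ± 54.0 CPM), Cdh5 (102 ± 22.9 CPM) and Pecam1 (84.0 ± 12.2 CPM), while Oit3 (4.44 ± 2.24 CPM), Kdr (6.87 ± 5.36 CPM) and Clec4g (14.4 ± 5.50 CPM) were low. Of the 18 sinusoidal genes, 5 (among them Cdh5 and Stab2) are also on a list of macrophage programs. Hepatocyte genes took 0.189% to 0.315%, most of it transferrin. Trf is also on a list of macrophage programs, and its level kept a near-fixed ratio to that of Cdv3, as given above. Without Trf the hepatocyte share was 0.0406% to 0.116%. That smaller share was highest in library 6 and next highest in library 1 (0.0864%), and the other 4 libraries lay between 0.0406% and 0.0663%. Alb, the serum albumin gene, ran from 79.4 CPM in library 4 to 303 CPM in library 6 with a median of 157 CPM, and 8 of the 18 hepatocyte genes of at least 10 CPM had a wide spread as defined below, against 3.59% of all genes of that level. Mup3, a major urinary protein gene, stood at 115 CPM in library 6 and between 5.11 and 15.3 CPM in the others. The part that hepatocyte RNA played in other values was not tested.

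Transcription factors of the macrophage and Kupffer cell lineage followed. Of 25, 23 reached 10 CPM, 15 reached 100 CPM and the list median was 131 CPM. Cebpb ran from 3688 CPM in library 2 to 11994 CPM in library 5 with a median of 8539 CPM, and was the list's only gene of wide spread as defined below. Klf2 (1499 ± 257 CPM), Id3, an inhibitor of basic helix-loop-helix factors needed for Kupffer cell development (1427 ± 249 CPM), Spi1, which encodes PU.1 (866 ± 123 CPM), and the interferon regulator Irf7 (1165 ± 147 CPM) were among the next per length. The liver X receptor Nr1h3, which holds Kupffer cell identity, had 760.1 ± 59.8 CPM, with 659 to 821 CPM over the libraries. Its partner Rxra had 479.9 ± 142 CPM and Spic, a factor of iron-recycling macrophages, 226 ± 57.1 CPM. Irf8 also kept a narrow range (325 ± 20.9 CPM). Rbpj, the transcription factor of Notch signalling, had 5.13 ± 1.82 CPM, and Rxrg had reads in library 3 only (5.00 CPM). The cofactor Smad4 of TGF-beta family signals had 89.8 ± 29.9 CPM.

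Receptors for niche signals were led per length by Csf1r at 959 ± 108 CPM per kilobase. Csf2ra, the alpha chain for granulocyte-macrophage colony-stimulating factor, had 1000.2 ± 631 CPM. It ran from 555 CPM in library 1 to 2246 CPM in library 5 with a median of 859 CPM, and library 5 alone exceeded 925 CPM. The interferon gamma receptor chain Ifngr1 (495 ± 68.5 CPM) and the interleukin 10 receptor chains Il10ra (509 ± 113 CPM) and Il10rb (335 ± 39.1 CPM) reached 100 CPM. Among TGF-beta family receptors, Acvrl1 (ALK1) had 116 ± 30.4 CPM and its co-receptor Eng 26.3 ± 15.2 CPM. Tgfbr2 exceeded Tgfbr1 per length 3.43-fold (25.2 ± 5.596 against 7.54 ± 2.67 CPM per kilobase, log2 difference of Tgfbr1 over Tgfbr2 -1.78 ± 0.29, 6 of 6 libraries, p = 0.03125, adjusted p = 0.0341, exact permutation test), and 7.11-fold with principal transcript lengths.

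The complement list had a median of 376 CPM over 17 genes present in the table, 6 of them above 1000 CPM. C5 and Cfb were not analysed here. The 3 chains of C1q, the recognition molecule of the classical pathway, were all among the 12 genes of highest level per length, leaving out mitochondrial, predicted and ribosomal protein genes. C1qb stood at 6061 ± 1151 CPM per kilobase, C1qc at 2724 ± 583 and C1qa at 2469 ± 474. C1qb exceeded C1qa 2.45-fold (log2 difference of C1qa over C1qb -1.30 ± 0.04) and C1qc 2.24-fold (log2 difference 1.16 ± 0.12), each in 6 of 6 libraries with p = 0.03125 and an adjusted p of 0.0341 in the exact permutation test. C1qa and C1qc did not pass (log2 difference -0.13 ± 0.16, from -0.35 to 0.02, C1qa higher in 1 of 6 libraries, exact permutation p = 0.156, adjusted p = 0.156). With the longest transcript as length, C1qc exceeded C1qa 1.76-fold with an adjusted p of 0.03125 in the exact permutation test, and C1qb exceeded C1qc only 1.39-fold.

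C1qa and C1qb moved together over the libraries, and C1qc shared their lowest and highest library. C1qb ran from 4496 CPM in library 4 to 8018 CPM in library 3 with a median of 6657 CPM, C1qc ran from 3362 CPM in library 4 to 6881 CPM in library 3 with a median of 5334 CPM and C1qa ran from 1806 CPM in library 4 to 3122 CPM in library 3 with a median of 2610.3 CPM. Library 4 was lowest and library 3 highest in all 3. Pearson's r of log2 CPM over the 6 libraries was 0.989 for C1qa and C1qb (exact permutation p = 0.00139, adjusted over the 3 pairs 0.00417, Spearman's rho 1, p = 0.00278, adjusted 0.00833). It was 0.883 for C1qa and C1qc (exact permutation p = 0.00972, adjusted 0.00972) and 0.934 for C1qb and C1qc (exact permutation p = 0.00833, adjusted 0.00972), with rho 0.829 in both (exact permutation p = 0.0583, adjusted 0.0583). Without libraries 3 and 4, r over the 4 that remained was 0.984, 0.137 and 0.282 in that order. These 2 libraries were the extremes of all 3 genes, so a lower r follows in part from the choice. The high r of C1qc was thus not shown apart from these 2 libraries. Whether C1qa and C1qb, which kept a near-fixed ratio as given above, were counted with reads in common was not tested. The C1q genes are short. Genes with the shortest transcripts (1 of 5 equal groups by length) had a median log2 deviation from their own level over the libraries of -0.20 in library 4 and 0.19 in library 3, and its part in the relation was not tested.

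The C1q genes lie side by side on chromosome 4. The 250 bases before the RefSeq start of C1qb and C1qc (GRCm38.p6, 5′ to 3′ on the minus strand, from chr4:136886201-136886450 and chr4:136892915-136893164) are shown because these are among the 10 highest genes per length with the same kinds left out. Capitals mark the letters AGGAAGT or GAGGAAGT, a core bound by PU.1 and related factors, read on the opposite strand. C1qa had no window in the table used.
C1qb: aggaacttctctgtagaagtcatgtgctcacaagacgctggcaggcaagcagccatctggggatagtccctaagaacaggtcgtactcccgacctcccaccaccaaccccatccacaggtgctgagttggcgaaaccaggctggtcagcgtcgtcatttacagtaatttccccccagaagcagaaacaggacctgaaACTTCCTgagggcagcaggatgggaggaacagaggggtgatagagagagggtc
C1qc: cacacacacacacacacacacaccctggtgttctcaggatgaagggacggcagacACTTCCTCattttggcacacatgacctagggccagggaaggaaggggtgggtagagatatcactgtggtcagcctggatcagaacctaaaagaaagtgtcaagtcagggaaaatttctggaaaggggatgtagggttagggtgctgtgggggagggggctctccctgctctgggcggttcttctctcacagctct
AGGAAGT, searched on both strands, occurred in 7.69% of all 32851 such windows, and the longer GAGGAAGT, which contains it, in 2.44%. The composite element of ETS and IRF factors, searched in the same way and found in 2.30% of windows, was in neither. The C1qb match ends 47 bases before the start and the C1qc match 188 bases before it. Of 16 Kupffer cell surface markers with a window, AGGAAGT was in 2 (Fabp7 and Folr2), GAGGAAGT in 0 and the composite element in 3 (Folr2, Pilra and Timd4). These matches are descriptions of letters and not of bound sites.

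Other complement genes were spread over a wide range. Cfp, or properdin, the stabiliser of the alternative pathway, had 2952 ± 442 CPM, C4b 1204 ± 252 CPM, C6, of the membrane attack complex, 875 ± 207 CPM and C2 376 ± 32.5 CPM. The anaphylatoxin receptors C3ar1 and C5ar1 had 144 ± 29.6 CPM and 119 ± 18.8 CPM, and C3 itself 72.9 ± 35.4 CPM. Cfd, the adipsin gene, had 2 reads in all, and Itgax and Cd46 lay under 1 CPM (0.903 and 0.967).

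Scavenger and lectin receptors, which bind microbial sugars and modified lipoproteins, reached 10 CPM in 18 of 22 cases and 100 CPM in 14. Behind Clec4f and Fcna, a ficolin whose reads could not be told from Fcnaos, came Cd163 at 207 ± 63.5 CPM per kilobase, Marco at 153 ± 41.6, Clec4n (Dectin-2) at 94.0 ± 9.43 and the mannose receptor Mrc1 at 88.8 ± 25.01. Marco ran from 230.5 CPM in library 4 to 451 CPM in library 2 with a median of 273 CPM, with library 2 apart from the rest. Msr1 had 354 ± 119 CPM, Scarb1 393 ± 48.7 CPM and Cd36 63.0 ± 18.4 CPM. Clec4e, the Mincle gene, had 2.66 ± 2.57 CPM (1.75 CPM without library 6). Cd209a had 15 reads, all in library 2, and Scara5 had 2 reads, both in library 5.

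Receptors for dying cells were represented by several families. Axl, a receptor for the bridging protein Gas6, exceeded its relative Mertk 2.25-fold per length (349 ± 60.7 against 158 ± 42.7 CPM per kilobase, log2 difference 1.17 ± 0.28, 6 of 6 libraries, p = 0.03125, adjusted p = 0.0341, exact permutation test). The third family member, Tyro3, had 3 reads in all. Of the bridging molecules, Pros1 had 83.3 ± 22.5 CPM, Gas6 24.8 ± 8.51 CPM and Mfge8 2.29 ± 2.33 CPM (1.41 CPM without library 2). The integrin chain Itgb5 stood at 1028 ± 143 CPM and Itgb3 at 0.465 CPM (0.308 CPM without library 3). Lrp1, a large endocytic receptor, had 1722 ± 133 CPM with a spread under that of genes of its level. Stab1 ran from 192 CPM in library 2 to 608 CPM in library 5 with a median of 390.1 CPM, whereas Stab2 ran from 259 CPM in library 3 to 421 CPM in library 4 with a median of 333 CPM.

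Genes of iron and heme handling reached 1000 CPM in 6 of 21 cases. Slc40a1 (ferroportin), the iron exporter, had 3526 ± 696 CPM, the metal transporter Slc11a1 1245 ± 444 CPM and heme oxygenase Hmox1 831 ± 121 CPM. Hmox1 ran from 598 CPM in library 4 to 946 CPM in library 3 with a median of 857 CPM, library 4 being the lowest. Tfrc, which takes up transferrin-bound iron, had 12.5 ± 8.83 CPM. The light ferritin chain Ftl1 exceeded the heavy chain Fth1 5.59-fold per length (log2 difference of Fth1 over Ftl1 -2.48 ± 0.19, 6 of 6 libraries, p = 0.03125, adjusted p = 0.0341, exact permutation test). The size of this ratio depends on the gene model, since it was 3.33 with principal transcripts. Besides, Gm22133, a 109-base annotation inside Ftl1, held 64.1% of the Ftl1 level.

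Lipid genes held 5.78% ± 1.05 of all reads, 4.57% through Apoe. Apoc1, its neighbour in the apolipoprotein cluster, had 1475 ± 414 CPM, the lipid droplet coat Plin2 368 ± 54.7 CPM, lipoprotein lipase Lpl 612 ± 149.8 CPM and the lysosomal lipase Lipa 419 ± 58.4 CPM. Of the liver X receptor targets for cholesterol export, Abca1 had 433 ± 173 CPM and Abcg1 142 ± 30.4 CPM. Of the 21 lipid genes of at least 10 CPM, 3 had a wide spread as defined below, against 3.59% of all genes of that level. They were Abca1, Mylip (409.7 ± 235 CPM) and the desaturase Scd1 (123 ± 73.2 CPM). Fabp4 and Fabp5, fatty acid carriers, lay at 1.43 and 1.99 CPM, the former at 0.896 CPM without library 6. Among 20 genes known from lipid-associated macrophages, the highest after Apoe were Ctsb, Ctsd (3039 ± 300.5 CPM), the endosomal protein Cd68 (808 ± 142 CPM) and the galectin Lgals3 (695 ± 126 CPM). Trem2, the lipid-sensing receptor of that state, had 36.0 ± 9.56 CPM, and Gpnmb (1.54 ± 0.758 CPM), Spp1 (0.736 ± 1.17 CPM, or 0.292 CPM without library 6), Cd9 (5.74 ± 1.59 CPM) and Itgax lay under 10 CPM. Trem2 ran from 25.6 CPM in library 6 to 46.7 CPM in library 3 with a median of 36.5 CPM.

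Lysosomal genes were abundant throughout. Of 24, 23 reached 10 CPM, 21 reached 100 and 9 reached 1000, with a median of 530 CPM. The proteases Ctsb, Ctss, Ctsd and Lgmn stood above 1000 CPM per kilobase, the last with 2428 ± 555 CPM. The list's share of reads was 3.19% ± 0.216, and the libraries other than library 4 (2.76%) lay between 3.24% and 3.36%. The proton pump subunit Atp6v0d2 had the lowest mean at 5.58 ± 7.17 CPM, which was 2.995 CPM without library 4.

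Antigen presentation genes of class II were led by Cd74, from 7476 CPM in library 4 to 10950.5 CPM in library 3 with a median of 8668 CPM. H2-Ab1, the beta chain of I-A, exceeded the alpha chain H2-Aa 3.63-fold per length (log2 difference of H2-Aa over H2-Ab1 -1.86 ± 0.20, 6 of 6 libraries, p = 0.03125, adjusted p = 0.0341, exact permutation test). That ratio was 6.52 with longest transcripts and 2.28 with principal transcripts. Their activator Ciita had 67.0 ± 24.1 CPM, H2-Eb1 1338 ± 274 CPM, the costimulatory ligand Cd86 375 ± 71.9 CPM and Cd80 20.9 ± 7.06 CPM. For class I, H2-D1 stood at 2089 ± 248 CPM per kilobase and H2-K1 at 553 ± 47.3, but these genes have close relatives among which reads can be split. The peptide transporter genes Tap1 and Tap2 had 168 ± 41.5 CPM and 169.5 ± 50.3 CPM.

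Of 22 Toll-like receptor and adaptor genes, 17 reached 10 CPM and 3 reached 100. Cd14 (1130.3 ± 135 CPM per kilobase) and Unc93b1, the chaperone of the endosomal receptors (678 ± 103), led per length, and the highest of the 12 receptors was Tlr2 (26.8 ± 5.83). Tlr4, the lipopolysaccharide receptor, had 60.6 ± 20.8 CPM, and its co-receptor Ly96 (MD-2) exceeded it 3.27-fold per length (log2 difference 1.71 ± 0.37, 6 of 6 libraries, p = 0.03125, adjusted p = 0.0341, exact permutation test). Tlr13 (57.3 ± 22.2 CPM), Tlr8 (57.9 ± 29.5 CPM) and Tlr7 (49.0 ± 21.95 CPM), which sense RNA, reached 10 CPM. Tlr9 had 0.253 CPM (0.0332 CPM without library 2) and Tlr5 4 reads in all. Among Fc receptors, Fcgr3 (559.7 ± 59.9 CPM) and Fcgrt (542 ± 84.9 CPM) exceeded 500 CPM, against the inhibitory Fcgr2b (5.73 ± 5.76 CPM). Fcgr2b read 15.9, 8.50, 1.58, 1.27, 1.49 and 5.65 CPM in libraries 1 to 6, so libraries 1 and 2 were the highest, and the mean was 3.70 CPM without library 1. Its difference from Fcgr3 was -9.00 ± 1.42 on the log2 scale per length, lower in 6 of 6 libraries (p = 0.03125, adjusted p = 0.0341, exact permutation test), a ratio of 512 that came to 177 with 1 CPM per kilobase added to both.

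Cytokine genes differed widely. Il1b had 1492 ± 488 CPM and ran from 713 CPM in library 3 to 2004 CPM in library 1 with a median of 1536 CPM, lowest in library 3. Il1a (298 ± 99.5 CPM) and the growth factor Igf1 (302 ± 98.9 CPM) reached 100 CPM. Tnf (61.4 ± 28.8 CPM), Il6 (70.3 ± 21.3 CPM), Il10 (49.1 ± 16.8 CPM) and Il18 (38.2 ± 10.8 CPM) reached 10 CPM, and 5 of the 26 genes (Il12a, Tgfb2, Ifnb1, Csf2 and Lif) had no read. Of 22 chemokine genes, Ccl6 (804 ± 150.1 CPM), Cxcl16 (457 ± 121 CPM), Cxcl2 (304 ± 57.9 CPM), Cxcl13 (210.1 ± 74.99 CPM), Ccl24 (149 ± 45.6 CPM) and Ccl4 (137 ± 33.7 CPM) exceeded 100 CPM. The Ccl6 level lay between 98.5% and 99.8% of that of E230016K23Rik, in whose body it lies. Ccl2, which recruits monocytes, had 13.1 ± 4.90 CPM, and Cxcl12 5.75 ± 4.40 CPM.

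Genes known to respond to tissue digestion and sorting were high. All 18 in the table exceeded 10 CPM, 15 exceeded 100 and 8 exceeded 1000, with a median of 689 CPM and a share of 2.72% ± 0.337 of reads. Besides Dusp1 and Fos they comprised Jun (3485 ± 675 CPM), Junb (2365 ± 571 CPM), Zfp36, which promotes decay of cytokine transcripts (1799 ± 282 CPM), Jund (1515 ± 512 CPM), Nfkbia (1299 ± 156 CPM) and Egr1 (1121 ± 234 CPM). Junos (1113 ± 222 CPM) and Gm11175 (751 ± 259 CPM) overlap the bodies of Jun and Jund. Levels in undisturbed tissue were not measured, and the part of isolation in the Il1b, Tnf and Cxcl2 levels was not tested.

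Interferon-stimulated genes were all above 10 CPM (22 of 22), with a median of 97.2 CPM. Ifi27l2a (1232 ± 389 CPM per kilobase) and the antiviral membrane protein Ifitm3 (1187 ± 356) were highest per length, and Mx2 (14.8 ± 4.76 CPM) and Ifit1 (17.2 ± 8.84 CPM) were among the lowest. Oas2 ran from 204 CPM in library 3 to 669 CPM in library 1 with a median of 481 CPM and had a wide spread. Cell cycle genes had a median of 7.24 CPM, against 5.83 CPM for all genes with a read. Of 25, 11 reached 10 CPM, against 43.3% of all genes with a read, and none reached 100. The replication clamp Pcna (35.0 ± 6.36 CPM) and the helicase chain Mcm3 (49.0 ± 6.19 CPM) led per length, and Mki67, made in dividing cells, had 10.99 ± 5.79 CPM.

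Some usual reference genes were low. Gapdh, the glycolytic enzyme, had 10.2 ± 6.03 CPM, the cyclophilin Ppia 16.7 ± 5.84 CPM and the growth-related Tpt1 29.7 ± 10.97 CPM, while its pseudogene Tpt1-ps3 had 63.8 ± 27.6 CPM. The 263 ribosomal protein genes and their named pseudogenes took 0.411% ± 0.125 of reads, 0.471% to 0.571% in libraries 1 to 3 and 0.259% to 0.332% in libraries 4 to 6, and the highest was Rpl4 at 225 ± 39.3 CPM. In contrast, the actin gene Actb had 2064 ± 618 CPM. How reads that match several copies were counted is not given in the sources used here, so levels of genes with near-identical copies are uncertain.

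**Figure D3:**
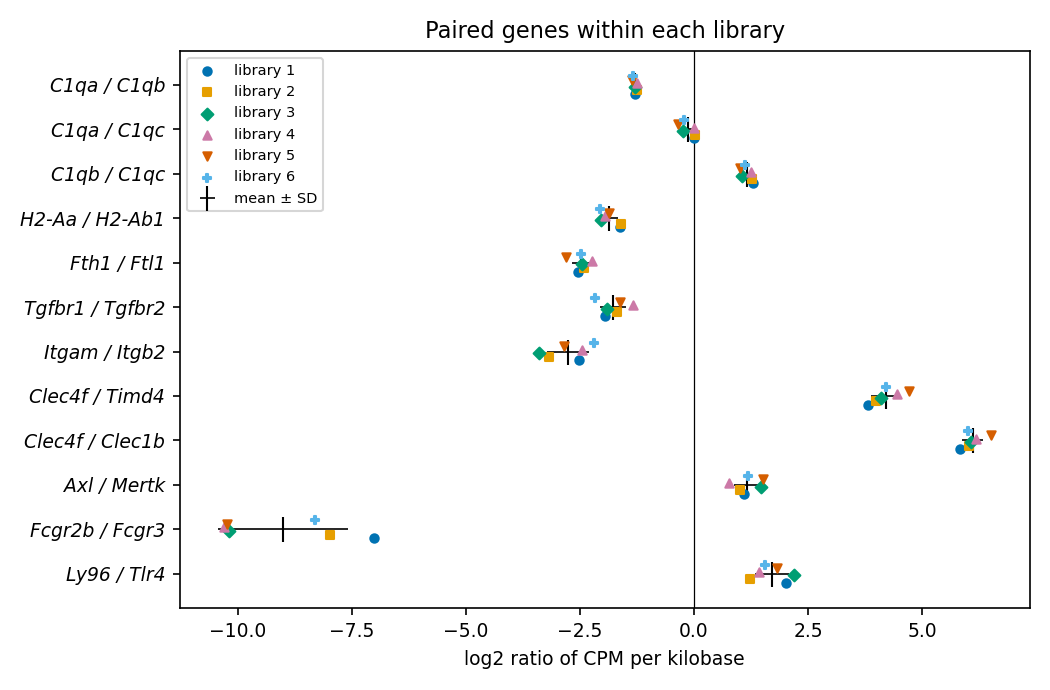
Log2 ratio of CPM per kilobase for 12 pairs of genes in each of the 6 libraries (symbols) with mean and SD (bar). All libraries lie on 1 side of 0 for 11 pairs, and those of C1qa and C1qc lie between -0.35 and 0.02.

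The spread over the 6 libraries was measured for the 8808 genes of at least 10 CPM. The quartiles of the coefficient of variation were 0.212 and 0.389. A gene was called wide when its coefficient was at least 2 times the median of the 500 genes nearest in mean CPM, which held for 316 genes (3.59%). Of the 12 named genes of widest relative spread, Cul3, a ubiquitin ligase scaffold, read 386, 20.5, 71.6, 91.6, 40.3 and 63.9 CPM in libraries 1 to 6, so that library 1 stood apart. Ywhag (1256, 123, 414, 295, 529.8 and 459), Gbp2b (328, 67.9, 106, 52.2, 101 and 98.1) and Exoc3l2 (118, 4.71, 44.7, 19.1, 9.62 and 24.6) were also highest in library 1. Without library 1 the mean fell from 112 to 57.6 CPM for Cul3 and from 36.8 to 20.5 CPM for Exoc3l2. Cnnm3 read 737, 5.36, 404, 975, 433 and 253 CPM, with library 2 far below the others, and Irf2bp2 69.1, 38.6, 329, 85.3, 192 and 48.7 CPM, with library 3 highest. Atf2 (266, 171, 36.8, 53.8, 55.9 and 43.2) and the mediator kinase Cdk8 (1746, 963, 848, 310.3, 382 and 381) were higher in libraries 1 and 2 than in libraries 4 to 6. Mup3 and the transporter gene Slc12a5 (14.6, 2.59, 0, 5.72, 2.99 and 46.9) were highest in library 6, and without it their means fell from 27.3 to 9.65 CPM and from 12.1 to 5.19 CPM.

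Zc3h7a and Peak1, the other 2 of these 12, each hold a small annotated RNA of the same sequence. Gm23935 (chr16:11144125-11144181, plus strand) lies inside Zc3h7a and Gm24270 (chr9:56223715-56223771, minus strand) inside Peak1, both annotated as miRNA and outside the exons of the larger gene. The sequence is shown because its level was most of that of Zc3h7a.
Gm23935 and Gm24270: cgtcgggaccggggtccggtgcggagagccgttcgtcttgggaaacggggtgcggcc
It is 57 bases long with 73.7% G and C. Zc3h7a read 8037, 5285, 1554, 1144, 1393 and 2106 CPM in libraries 1 to 6 and Gm23935 7628, 4959, 1441, 866, 1205 and 1846 CPM, or 91.9% of the Zc3h7a mean. Peak1 read 329, 211, 46.9, 38.3, 53.7 and 72.2 CPM, and Gm24270 42.6% of its mean. Without library 1 the Gm24270 mean fell from 53.3 to 32.9 CPM. Libraries 1 and 2 were the highest in all 4 annotations. Taking Gm23935 away left 262 ± 104 CPM for Zc3h7a and brought its spread from 4.40 to 1.79 times the reference, whereas Peak1 without Gm24270 (71.8 ± 58.4 CPM) remained at 3.21 times. Gm24245, which has the same sequence, was not analysed here. Whether these reads came from the 2 annotated sites or from other copies of the sequence was not tested.

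**Figure D4:**
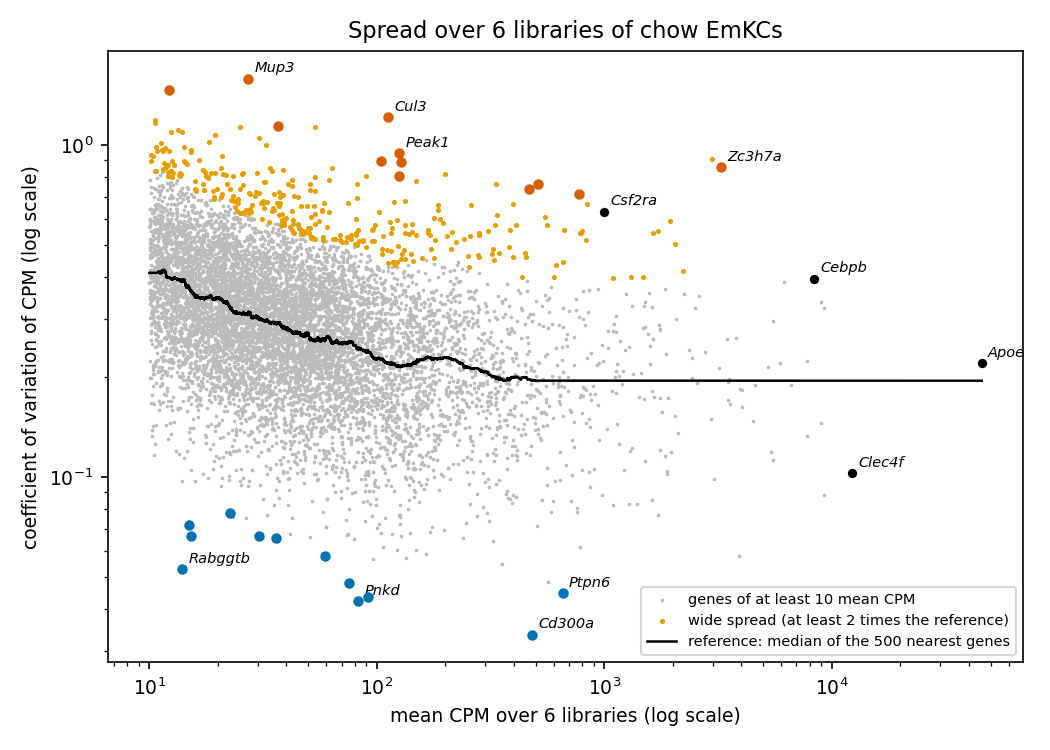
Coefficient of variation of CPM over the 6 libraries against mean CPM for 8808 genes (both axes log). The black line is the reference, which for the most abundant genes is the median of the 500 highest. Orange points are the 316 wide genes, red and blue points the 12 named genes of widest and narrowest relative spread, and black points 4 genes of the text.

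At the other end, 166 genes had a coefficient under 0.1. Cd300a, an inhibitory receptor that binds phosphatidylserine, read 498, 476, 478, 455, 498 and 486 CPM in libraries 1 to 6, a coefficient of 0.0336 or 0.171 times the reference. Ptpn6, the phosphatase SHP-1 that acts below such receptors, read 679, 641, 641, 670.0, 693 and 613 CPM (0.229 times). Rabggtb, the beta subunit of a Rab prenylation enzyme, had the lowest ratio (0.135) at 13.9 ± 0.738 CPM. Cops7a (75.8 ± 3.64 CPM), Strn (15.0 ± 1.07 CPM), Ldb1 (59.4 ± 3.45 CPM), Pkib (36.2 ± 2.38 CPM), Tmem273 (15.2 ± 1.01 CPM) and Knop1 (22.5 ± 1.75 CPM) were in the same group. Of the 12 narrowest, 5 overlap the body of another gene, namely Pnkd (82.9 ± 3.52 CPM) with Tmbim1, Scpep1os (91.1 ± 3.98 CPM) with Scpep1, Angptl7 (30.3 ± 2.02 CPM) with Mtor, Ldb1 with Pprc1 and Knop1 with Vps35l. The share of such overlaps over all 8808 genes was not measured, so this count is not shown to be particular to narrow genes. Choosing the extremes of 8808 genes selects for low and high values over 6 libraries, so the list describes these libraries.

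The libraries deviated from one another by base content and length. For each gene, the log2 CPM was set against the gene's median over the libraries, and genes were sorted into 5 equal groups. In the group of highest GC content the median deviation was 0.19 in library 5 and -0.11 in library 2, and in the group of lowest GC content -0.29 and 0.18. By transcript length, library 4 ran from -0.20 in the shortest group to 0.34 in the longest and library 3 from 0.19 to -0.26. Of the 316 wide genes, 108 (34.2%) were lowest in library 2, against 11.7% of all 8808 genes, and their median GC content was 53.8% against 49.9%. Library 3 was lowest in 83 (26.3%), near its share of all genes (23.3%). The highest value was in library 4 for 99 wide genes (31.3%, against 25.3% of all genes), in library 5 for 84 (26.6%, against 15.5%) and in library 2 for 7 (2.22%, against 14.7%). Differences between libraries in short genes such as C1qa or in genes rich in G and C such as Cebpb move with these trends, and their part was not tested. Correlations of log2 CPM between libraries ran from 0.859 to 0.914.

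**Figure D5:**
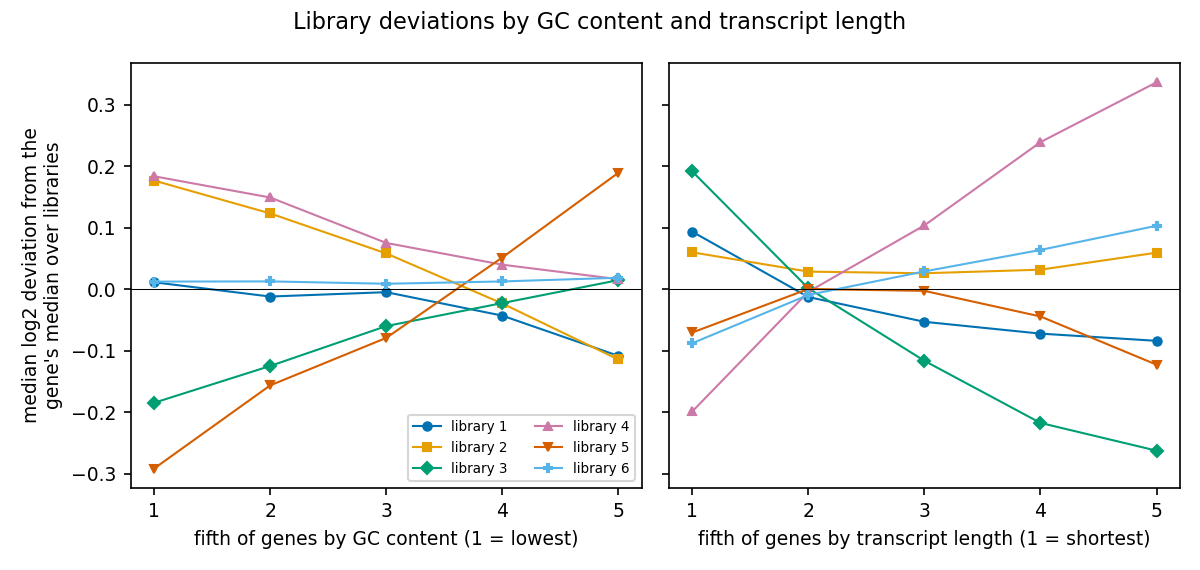
Median log2 deviation of genes from their own median over the libraries, in 5 equal groups by GC content (left) and by transcript length (right), for each of the 6 libraries. Library 5 rises and library 2 falls with GC content, and library 4 rises and library 3 falls with length.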

How the data were processed

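RNA of 19 sorted liver macrophage samples was sequenced, and the 6 Chow_EmKCs samples were used. Reads were aligned with STAR to mm10 and DESeq2 was used, per the submitters' processing notes. The deposited table holds a normalised signal, reads divided by a size factor, for 33919 genes. All of its values were whole multiples of 1 read (100% within 0.001 of a read), so the reads of each library were recovered. What counted the reads, and with which annotation, is not given in the sources used here. All 19 sample columns matched a label, and 0 were left unmapped.

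CPM was computed from the recovered reads. Gene lengths are merged exons of GENCODE M21, and the table's 4857 identifiers without a symbol took 3.53% of reads. Spread was the coefficient of variation of genes of at least 10 mean CPM, set against the 500 genes nearest in level. The measure was tested on simulated reads that lacked the trends by GC content and length described above. It found 45.1% of genes given 2 times the spread, 82.3% at 3 times and 96.6% at 4 times. Of the unchanged genes it called 0.419% to 0.584%. Each unchanged gene was simulated with the reference spread of its level and independently of other genes. That share therefore cannot show how many of the 316 wide genes are truly wider. The 12 pairs of genes were tested with an exact sign-flip permutation over 64 patterns, two-sided and adjusted by Benjamini-Hochberg. Tools were Python 3.11.15, pandas 2.3.3, scipy 1.17.1 and edgeR 4.0.16 in R 4.3.3. Genes named are the 20 highest by CPM and by CPM per kilobase, the first 8 of each list and its lowest members, and the 12 widest and 12 narrowest genes, without mitochondrial, predicted and ribosomal protein genes. Further genes, and the overlapping neighbours, were named after their values were seen. The members and lists were chosen with earlier results of these data known. Alternatives were other scalings, filters, lengths, a pseudocount and leaving out each library. Malat1, Hspa1a, Hspa1b, Psmb9 and Ahsp were not analysed here.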

Additional observations from a re-analysis of the deposited data

Results flagged for a closer look

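Single libraries stood apart from the other 5 in the values below. The number given with each is the gap between that library and the nearest other one as a share of the whole range, and a share above Dixon's 95% critical value for 6 values was taken as standing apart. Chance flags about 1 in 20 groups of values, and 5.99% of the 8808 genes of at least 10 CPM were past this limit. Of 217 such genes named here, 24 were past it, 7 of them chosen for a wide (Cul3, Exoc3l2, Gbp2b, Mup3, Slc12a5 and Ywhag) or narrow (Pnkd) spread. No explanation was tested.

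Library 3 was high for Apoe (0.740) and H2-Ab1 (0.634), and for the shares of reads in the lipid list (0.636, 7.80% against 4.80% to 5.89%) and in the lipid-associated macrophage list (0.673, 8.16% against 5.08% to 6.09%), both of which hold Apoe.

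Library 4 was low for the endosomal gene Cd68 (0.669), the galectin gene Lgals3 (0.703), heme oxygenase Hmox1 (0.664) and the share of lysosomal genes (0.789). It was high for Pnkd (0.683) and for Tmbim1 (0.636), whose bodies overlap.

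Library 5 was high for Csf2ra (0.781), at 2246 CPM against 555 to 925 CPM, for the early response genes Junb (0.714) and Jund (0.682), for Gm11175 (0.730), whose body overlaps Jund, and for Unc93b1 (0.6254).

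Library 1 was high for Cul3 (0.805), Gbp2b (0.805), Exoc3l2 (0.647), Ywhag (0.641) and the share of interferon-stimulated genes (0.641, 0.578% against 0.474% to 0.511%). Library 6 was high for Mup3 (0.907) and Serpina1a (0.731), both hepatocyte genes, for Slc12a5 (0.688), the endothelial co-receptor gene Eng (0.743), the costimulatory ligand gene Cd80 (0.631) and the protease gene Lgmn (0.717), and low for Scpep1 (0.626). Library 2 was high for Marco (0.696) and for the total of reads (0.626).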

How the results depend on the processing

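The median coefficient of variation was 0.362 with a filter of 1 mean CPM and 0.236 with a filter of 50, and leaving out each library gave 0.278 to 0.295. Of the 316 wide genes, 159 had at least 50 mean CPM, and 157 of these were called with the filter of 50 mean CPM. Under that filter 3442 genes were measured and 4.56% were wide. By edgeR's tagwise against trended dispersion 14 genes were called, all among the 316. The tagwise value is drawn toward the trend (prior degrees of freedom 10.5), so the limit is stricter there. Leaving out each library gave 331 to 396 wide genes, of which 229 to 271 were among the 316. The hepatocyte share was 0.244% ± 0.0484 and fell to 0.0673% without Trf, an alternative added after seeing the data. Counts of genes by level kept within 1.5 times under every scaling and without each library (8740 to 8843 genes at 10 CPM). All 12 pairs kept their direction under each length, the pseudocount and without each library, where 5 libraries allow no p below 0.0625. C1qa and C1qc alone crossed the threshold, with longest or principal transcripts. Without 1 library, the means of 6 named genes of at least 10 CPM moved by over 1.5 times, Serpina1a from 14.4 to 9.31 CPM (library 6) and Cul3, Exoc3l2, Gm24270, Mup3 and Slc12a5 as given above, and so did those of 16 named genes under 10 CPM. Depth limits genes under 0.197 CPM in the shallowest library. No paired analysis was possible because the report rests on 1 group of samples.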

Other observations

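Transcripts of sex-linked genes were read as a check of the label female. Xist, the RNA of the inactive X chromosome, stood at 87.6 ± 21.3 CPM, between 67.0 and 116 CPM. Tsix, which overlaps it on the opposite strand, stood at 87.7 ± 21.2 CPM, so the reads of these genes cannot be told apart. The Y-linked genes Kdm5d, Uty and Eif2s3y had no read in any library, which allows up to 0.0262 CPM, whereas Ddx3y was listed at 20.5 ± 5.51 CPM, from 13.3 to 25.1 CPM. Ddx3y has a close relative on the X chromosome, and how reads that match both were counted is not given in the sources used here.

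Further neighbours kept a fixed ratio over the libraries. Kpna7 held 74.5% to 78.7% of the level of Arpc1b, an actin nucleation subunit, over a gap of 30185 bases. Rprd1b held 79.8% to 85.2% of the level of the transglutaminase gene Tgm2, Gtf2ird2 78.8% to 85.4% of that of the oxidase subunit Ncf1, and 4930469K13Rik differed by less than 5% from the adaptor gene Lcp2 in every library. Whether reads were counted for both genes of these pairs was not tested.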
